A study of Mus musculus with 6 samples.

Results

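Skeletal muscle burns fatty acids and pyruvate in its mitochondria, and the genes described here encode the enzymes and carriers of that route. The members were 39 genes named by symbol for their place in these pathways, 22 of fatty acid uptake and oxidation, 3 of the pyruvate dehydrogenase complex and 14 of the citric acid cycle. The rule uses no measured value, although the members were chosen with earlier results of these data known. It takes every probe set that carries one of these symbols alone. This gave 65 probe sets for 37 of the 39 genes, out of 22626 probe sets for 12393 named genes on the array. Cpt1b and Acsl1 are not analysed here, because no probe set used here carried either symbol alone. Transcripts were measured on short-oligonucleotide arrays in normal adult female mice of the C57Bl/6 strain, aged 6 months and untreated as far as the labels say. One group was the superficial masseter, a jaw-closing muscle, with 3 samples, and the other was the tibialis anterior, a limb muscle that lifts the foot, with 3 samples. Strain, sex and age were the same in both groups, each sample had its own array, and the labels number the samples 1 to 3 within each muscle. Nothing in the labels states that each sample is another animal, and the p-values therefore measure the spread between these samples only, which may be technical. The comparison asks whether jaw muscle and limb muscle differ in these genes.

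Long-chain fatty acids are freed from blood lipoproteins by lipoprotein lipase, enter the fibre with the help of CD36, travel on a fatty acid binding protein and cross the inner mitochondrial membrane as carnitine esters. Inside the matrix, β-oxidation shortens them step by step to acetyl-CoA, passing electrons to the respiratory chain through the electron transfer flavoprotein. Pyruvate dehydrogenase makes acetyl-CoA from carbohydrate instead, and the citric acid cycle oxidises the acetyl group whichever fuel it came from. Oxidative fibres generally hold more of this machinery than fast glycolytic fibres.

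Values are the deposited signal intensities of each probe set, and a difference is log2 masseter minus log2 tibialis anterior, followed after ± by its standard error from limma (SE, n = 3 per muscle). Each gene stands with the probe set that was brightest on average over the 6 arrays, and an adjusted p is limma's p after Benjamini-Hochberg adjustment over 13576 probe sets. Signals of different probe sets are not on a common scale, so levels of member genes are compared between muscles and never between genes. For the same reason, the summed signals of marker lists given below mainly follow the genes with the brightest probe sets. All 37 genes passed the filter on low signals, which looks only at the mean over both muscles, and 64 of the 65 probe sets did. The exception was a dim probe set of Mdh1, which lay under the filter level of 28.6.

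None of the 37 genes differed between masseter and tibialis anterior at an adjusted p under 0.05. The count was 0 in each direction for fatty acid uptake and oxidation, for pyruvate dehydrogenase and for the citric acid cycle. Over all 8316 genes tested by their brightest probe set, 1.37% passed that threshold, made up of 0.709% higher and 0.661% lower in the masseter, and over all probe sets 1.18% passed. An unadjusted p under 0.05 was reached on the lower side of the masseter by 6 of the 37 (Decr1, Slc25a20, Acaa2, Etfdh, Acadm and Idh3b), against 6.57% of all genes, and on the upper side by 1, Lpl, against 7.35%. Paired SAM, run as an alternative to limma, also called 0 of the 37. The differences were small. The lowest was -0.66 and the highest 0.35, 0 of 37 exceeded 2-fold against 3.45% of all genes, and the 95% interval lay wholly within 2-fold either way for 35 of 37 genes, against 71.2% of all genes. The exceptions were Acot2 and Idh3b. The median SE was 0.14 over the members and 0.22 over all genes, and these shares are not matched for signal level or precision.

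**Figure D1:**
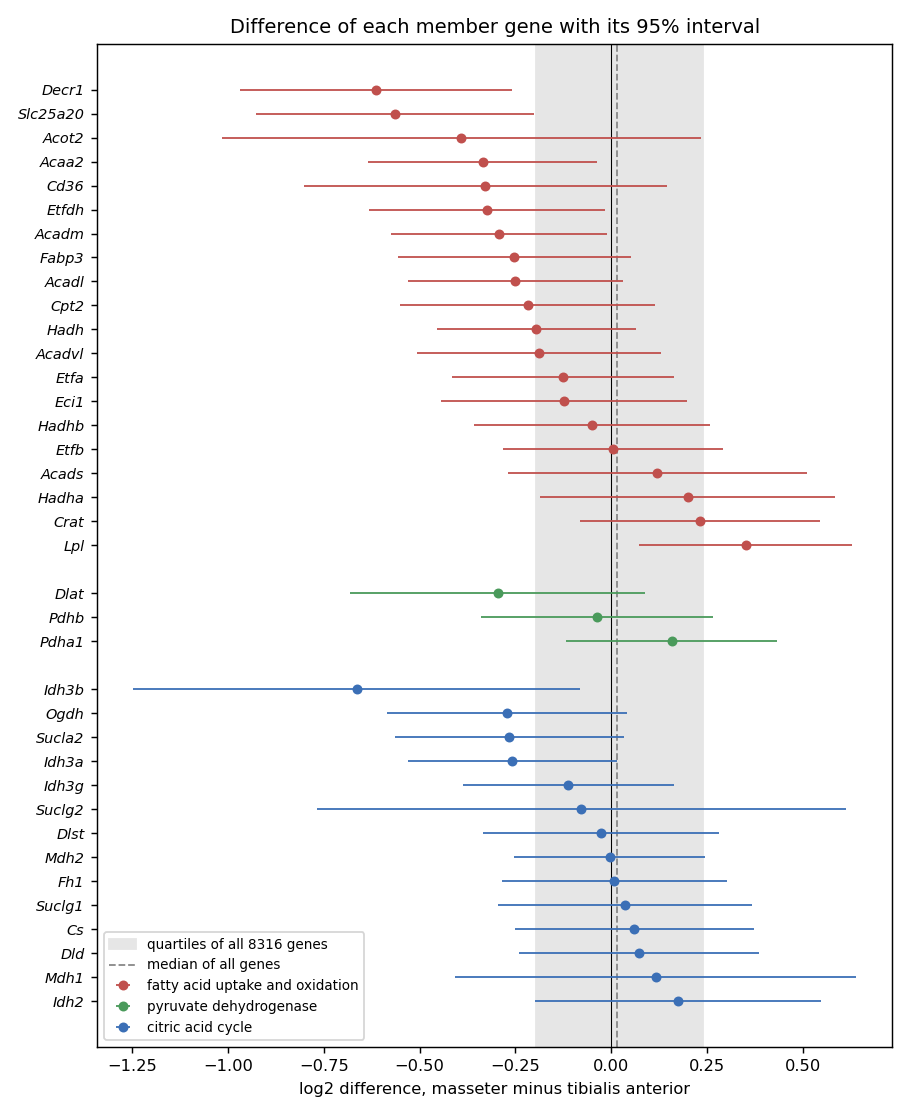
Each point is the log2 difference of a gene's brightest probe set, masseter minus tibialis anterior (horizontal axis), and each bar its 95% interval from limma over 3 arrays per muscle. Colours mark the fatty acid genes, pyruvate dehydrogenase and the citric acid cycle, the grey band runs between the quartiles of all 8316 genes, from -0.20 to 0.24, and the dashed line is their median of 0.02; most fatty acid genes sit left of 0, from Decr1 at -0.61 to Lpl at 0.35, while the citric acid cycle genes other than Idh3b lie between -0.27 and 0.17.

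The fatty acid genes lay mostly to the tibialis side. Their median difference was -0.21 over 20 genes, against 0.02 over all genes, and 15 of the 20 were below 0, against 47.7% of all genes. In 11 of the 20 the masseter sample was the lower of each numbered pair, against 17.3% of all genes, and in 3 the higher, against 19.2%. The 3 masseter signals all lay below the 3 tibialis signals for 6 of the 20, against 9.16% of all genes, and above them for 2, against 9.82%. The citric acid cycle genes had a median of -0.01 over 14 genes, with 8 below 0, 1 whose groups did not overlap in the lower direction and 0 in the upper. The 3 pyruvate dehydrogenase genes had a median of -0.04. Whether the groups of genes differ from each other was not tested. In whole muscle, less RNA per cell and fewer cells of a type cannot be told apart.

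**Figure D2:**
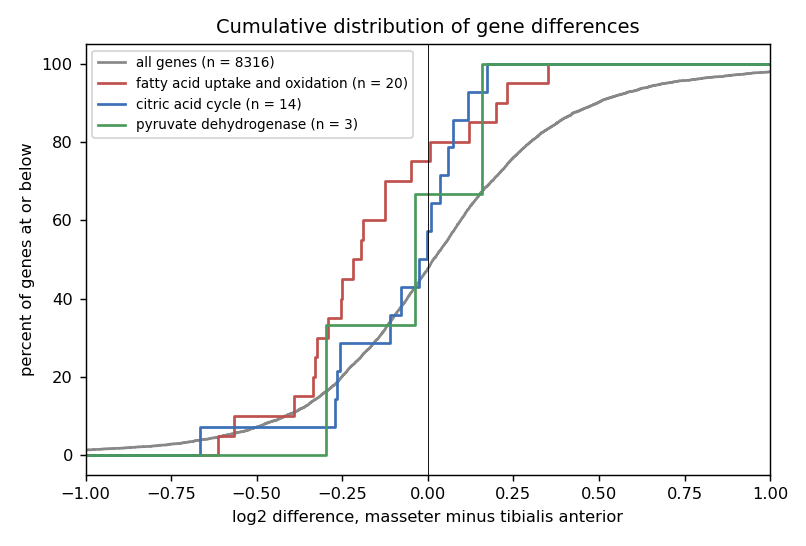
Each step line gives the percent of genes (vertical axis) whose log2 difference, masseter minus tibialis anterior, is at or below the value on the horizontal axis. The line of the 20 fatty acid genes stands left of the grey line of all 8316 genes between -0.33 and 0, with 15 of the 20 genes below 0 against 47.7% of all genes, and the line of the 14 citric acid cycle genes crosses the grey line repeatedly below 0.

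Lpl encodes lipoprotein lipase, which releases fatty acids from circulating triglyceride. Its signals were 12217, 12809 and 12148 for masseter samples 1 to 3, and 8431, 11842 and 9170 for tibialis anterior samples 1 to 3. All masseter arrays lay above all tibialis arrays, with tibialis anterior 2 close below them. The difference was 0.35 ± 0.12 (95% interval 0.07 to 0.63, adjusted p = 0.261), and the second probe set gave 0.41 ± 0.15, also without overlap. Lpl is also made by fat cells, and of 9 markers of white fat cells 7 were measured. Lep and Pparg lay under the filter level, and the 5 others all had differences above 0, with a median of 0.58. Of these, Cidec averaged 26.6 in the tibialis anterior, under the filter level of 28.6, and was kept only through the masseter. Adipoq, the adipocyte hormone adiponectin, was the 1 that passed, higher in the masseter, with signals of 632, 236 and 246 on masseter arrays 1 to 3 against 227, 109 and 106 on tibialis arrays 1 to 3 (difference 1.26 ± 0.17, adjusted p = 0.0167). The summed signal of the list ran from 4257 to 6137 in the masseter and from 3079 to 5081 in the tibialis anterior. Of this, the marker Fabp4 alone gave 3791 to 5106.5 and 2772 to 4826. The part of fat cells in the Lpl values was not tested.

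Cd36 encodes the fatty acid translocase of the cell surface, which endothelial and fat cells carry as well as muscle fibres. The brightest probe set read 1543, 1283 and 2496 for masseter samples 1 to 3, and 2382, 2088 and 1968 for tibialis anterior samples 1 to 3. Masseter 3 was the highest of all arrays and masseter 1 and 2 the lowest, so the groups overlapped. The difference was -0.33 ± 0.21 (interval -0.80 to 0.14, adjusted p = 0.567). The other probe sets gave -0.44 ± 0.13 and -0.38 ± 0.15, with the masseter lower in each of the 3 numbered pairs and adjusted p values of 0.192 and 0.324. Endothelial markers, 7 of 8 measured and all 7 above the filter level, summed to between 1131 and 1256 in the masseter and between 1078 and 1698 in the tibialis anterior. Of the 7 differences 5 were below 0, with a median of -0.31, and 0 of the 7 passed. The part of these cells in the Cd36 values was not tested.

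Fabp3, the muscle fatty acid binding protein, ferries fatty acids through the cytosol. It read 4210, 2466 and 3940 for masseter samples 1 to 3, and 4206, 3406 and 4828 for tibialis anterior samples 1 to 3. Sample 2 was the dimmest of its muscle on both sides. The difference of -0.25 ± 0.13 had an interval of -0.56 to 0.05 (adjusted p = 0.481).

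Members of the carnitine shuttle differed in direction. Slc25a20 encodes the carnitine/acylcarnitine carrier of the inner mitochondrial membrane. Its brightest probe set gave 959, 877 and 809.7 for masseter samples 1 to 3, and 1212, 1185 and 1537 for tibialis anterior samples 1 to 3. Every masseter array lay below every tibialis array, and tibialis anterior 3 stood highest. The difference was -0.57 ± 0.16, a signal 1.48-fold lower in the masseter (interval -0.93 to -0.20, adjusted p = 0.166). The second probe set, on which a value may come from transcripts of more than 1 gene, gave 442, 414 and 445 on masseter arrays 1 to 3 against 622, 642 and 806 on tibialis arrays 1 to 3. There too the groups were apart, with a difference of -0.66 ± 0.15 and an adjusted p of 0.0983. Neither probe set passed.

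Cpt2, the carnitine palmitoyltransferase of the matrix side, read 499, 488 and 474 on masseter arrays 1 to 3 against 585, 594 and 523 on tibialis arrays 1 to 3. These groups did not overlap either, but the gap between masseter 1 and tibialis anterior 3 was small, and the difference was -0.22 ± 0.14 (adjusted p = 0.592). Its dim second probe set gave -0.10 ± 0.26 with overlap. Crat, the carnitine acetyltransferase that buffers acetyl-CoA, went the other way. Its signals were 894, 793 and 859 for masseter samples 1 to 3, and 735, 676 and 758 for tibialis anterior samples 1 to 3, all masseter arrays above all tibialis arrays. The difference was 0.23 ± 0.14 (interval -0.08 to 0.54, adjusted p = 0.543), and the dimmer probe set gave 0.29 ± 0.24 with overlap.

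**Figure D3:**
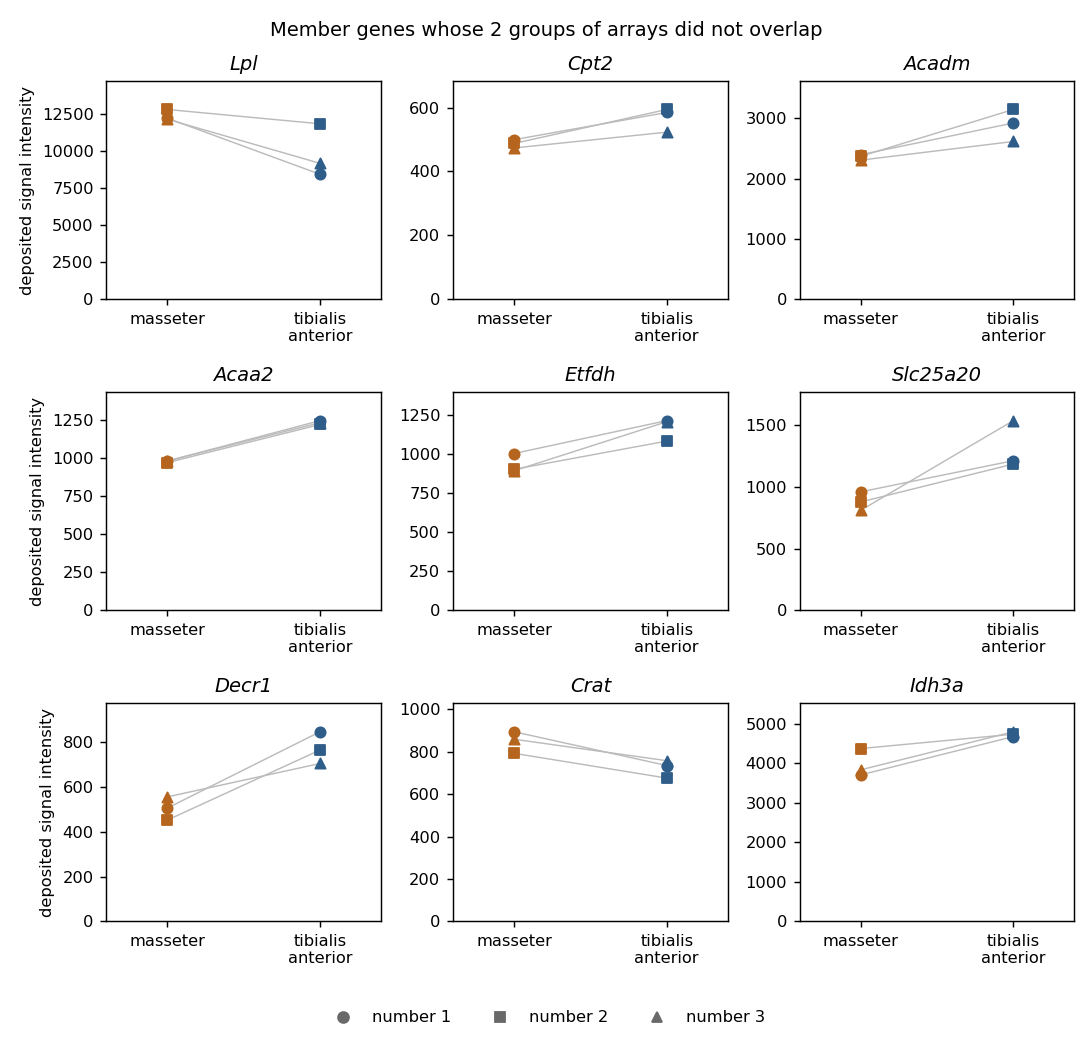
Each panel plots the deposited signal intensity of a gene's brightest probe set (vertical axis, from 0) on the 3 masseter and 3 tibialis anterior arrays, with grey lines joining samples of the same number. These are the 9 genes whose groups of arrays did not overlap: Cpt2, Acadm, Acaa2, Etfdh, Slc25a20, Decr1 and Idh3a lie lower in the masseter and Lpl and Crat higher, and the distance between groups is large against the spread within them for Acaa2 and narrow for Cpt2.

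The acyl-CoA dehydrogenases take the first step of each β-oxidation round and are specialised by chain length. Acadm, for medium chains, read 2399, 2371 and 2308 for masseter samples 1 to 3, and 2925, 3149 and 2618 for tibialis anterior samples 1 to 3. The masseter arrays were close together and all below the tibialis arrays, with a difference of -0.29 ± 0.12 (interval -0.57 to -0.01, adjusted p = 0.364). Acadl, for long chains, read 2086, 2337 and 2721 on masseter arrays 1 to 3 against 2634, 2833 and 2992 on tibialis arrays 1 to 3, a difference of -0.25 ± 0.12 with overlap (interval -0.53 to 0.03, adjusted p = 0.441). Its dim second probe set, with signals from 22.1 to 36.6, gave 0.02 ± 0.42. Acadvl, for very long chains, differed by -0.19 ± 0.14 and Acads, for short chains, by 0.12 ± 0.17. Their adjusted p values were 0.636 and 0.83, and the intervals were -0.51 to 0.13 and -0.27 to 0.51.

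The later steps are carried by the mitochondrial trifunctional protein, by the short-chain 3-hydroxyacyl-CoA dehydrogenase Hadh and by the thiolase Acaa2. Hadha and Hadhb encode the α and β subunits of the trifunctional protein. Hadha read 420.2, 362 and 364 on masseter arrays 1 to 3 against 318, 298 and 386 on tibialis arrays 1 to 3, a difference of 0.20 ± 0.17 (interval -0.18 to 0.59, adjusted p = 0.686). Hadhb read 2971, 2590 and 3148 on masseter arrays 1 to 3 against 2857, 3221 and 2921 on tibialis arrays 1 to 3, a difference of -0.05 ± 0.13 (interval -0.36 to 0.26, adjusted p = 0.92). The groups overlapped for both subunits, and the other probe set of Hadhb gave -0.23 ± 0.12. Whether the subunits differ from each other was not tested. Acaa2 read 979.7, 969 and 979.8 on masseter arrays 1 to 3 against 1245, 1219 and 1231 on tibialis arrays 1 to 3, with little spread within either muscle. Its difference was -0.34 ± 0.13 (interval -0.63 to -0.04, adjusted p = 0.318), and its other probe sets, at -0.22 ± 0.14 and -0.29 ± 0.17, were also free of overlap. The brightest probe set of Acaa2, like the second of Slc25a20, may read transcripts of more than 1 gene. The brightest probe sets of Hadh, Dlat, Mdh1 and Ppargc1a, whose names end in _x_at, were not checked for this. The probe sets of Hadh did not go one way. The brightest, at 5661, 7080 and 5823 on masseter arrays 1 to 3 against 6719, 7461 and 6987 on tibialis arrays 1 to 3, gave -0.20 ± 0.11 (interval -0.45 to 0.06, adjusted p = 0.536) and the next -0.24 ± 0.15. The dimmest gave 0.16 ± 0.20, where masseter 3 at 449 stood above the other arrays, which ran from 215 to 281.

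Hadha and Hadhb lie head to head on the chromosome, so that the 250 bases before the start of each overlap by 228 bases. The Hadhb window is shown because it lies before the starts of both genes. The Slc25a20 window is shown because both probe sets of that gene separated the muscles. The Acadm window is shown because, of the 32 members with a window, only Acadm held the receptor site named below in it. The sequences are from RefSeq's mouse assembly GRCm38.p6 and run from 250 bases before the gene's start up to the base before it, 5′ to 3′ on the strand of the gene. For Hadhb (chr5:30155003-30155252, plus strand) and Slc25a20 (chr9:108661886-108662135, plus strand) capitals mark GGGCGG, the GC box, or its reverse complement. For Acadm (chr3:153944644-153944893, minus strand) they mark AAGGTCA, the core site read by estrogen-related receptors, on the opposite strand.
Hadhb: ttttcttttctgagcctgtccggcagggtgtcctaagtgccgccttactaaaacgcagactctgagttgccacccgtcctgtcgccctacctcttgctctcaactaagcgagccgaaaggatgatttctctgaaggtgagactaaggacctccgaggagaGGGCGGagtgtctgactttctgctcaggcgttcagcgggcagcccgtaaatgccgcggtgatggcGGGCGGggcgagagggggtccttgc
Slc25a20: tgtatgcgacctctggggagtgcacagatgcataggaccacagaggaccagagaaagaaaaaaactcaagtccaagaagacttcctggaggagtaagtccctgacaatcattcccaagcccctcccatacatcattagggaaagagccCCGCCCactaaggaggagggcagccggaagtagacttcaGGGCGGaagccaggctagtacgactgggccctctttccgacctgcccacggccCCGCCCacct
Acadm: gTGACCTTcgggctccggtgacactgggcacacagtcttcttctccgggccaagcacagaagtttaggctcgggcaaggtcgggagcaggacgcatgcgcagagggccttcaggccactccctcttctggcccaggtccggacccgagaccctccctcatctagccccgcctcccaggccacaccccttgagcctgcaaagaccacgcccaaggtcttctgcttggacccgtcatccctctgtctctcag

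The Hadhb window held 2 GC boxes, the Slc25a20 window 3 and the Acadm window 1 short receptor site at its far end. Of the 37 genes, 32 had at least 1 such window in the table. With both strands searched, GGGCGG was found in at least 1 window for 20 of the 32 genes, against 35.4% of the 27025 genes with a window. AAGGTCA was found for Acadm only, against 4.7% of all genes. TCAAGGTCA, the longer form that contains it, was found for 0 of the 32 and 0.422% of all genes, and TATAAA, the TATA box, for 0 of the 32 and 14.3%. As a share of the 32851 windows these were 32.7%, 4.08%, 0.387% and 12.4%. These are matches of letters in a short window and show no binding.

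Electrons from the dehydrogenases pass through the electron transfer flavoprotein, a dimer of Etfa and Etfb, to Etfdh, its oxidoreductase in the inner membrane. Etfdh read 1002, 901 and 892 on masseter arrays 1 to 3 against 1213, 1082 and 1205 on tibialis arrays 1 to 3. The groups were apart, with a difference of -0.32 ± 0.13 (interval -0.63 to -0.02, adjusted p = 0.357). Etfa differed by -0.13 ± 0.13 and Etfb by 0.01 ± 0.13, each with overlap, and the intervals were -0.42 to 0.16 and -0.28 to 0.29.

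Unsaturated fatty acids need auxiliary enzymes. Decr1, the mitochondrial 2,4-dienoyl-CoA reductase, had the largest difference of the fatty acid genes. Its brighter probe set read 505, 452 and 555 for masseter samples 1 to 3, and 845, 764 and 704 for tibialis anterior samples 1 to 3, all masseter arrays below all tibialis arrays. The difference was -0.61 ± 0.16, a 1.53-fold lower signal in the masseter (interval -0.97 to -0.26, adjusted p = 0.127). The other probe set did not show it. It read 284, 285 and 239 on masseter arrays 1 to 3 against 312, 275 and 245 on tibialis arrays 1 to 3, with overlap and a difference of -0.04 ± 0.16 (interval -0.41 to 0.33). Eci1, an enoyl-CoA isomerase of the same branch, differed by -0.12 ± 0.14 (adjusted p = 0.781). Acot2, a matrix thioesterase that releases free fatty acids from CoA, was dim, at 57.3, 46.6 and 67 on masseter arrays 1 to 3 against 108, 48.3 and 77.6 on tibialis arrays 1 to 3. Its difference of -0.39 ± 0.27 had the interval -1.02 to 0.23 (adjusted p = 0.613), so a change of 2-fold toward the tibialis side is not outside it.

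The pyruvate dehydrogenase complex links glycolysis to the cycle. Pdha1, the α subunit of its E1 enzyme, read 3225, 3486 and 3191 on masseter arrays 1 to 3 against 2781, 3371 and 2754 on tibialis arrays 1 to 3. The masseter sample was the higher of each numbered pair, yet the groups overlapped, with a difference of 0.16 ± 0.12 (interval -0.12 to 0.43, adjusted p = 0.647). Its dimmer probe set gave 0.28 ± 0.17 (adjusted p = 0.558), also with overlap. Pdhb, the E1 β subunit, read 3934, 3952 and 3061 on masseter arrays 1 to 3 against 3556, 3865 and 3739 on tibialis arrays 1 to 3, where only masseter 3 stood clearly below the rest. The difference was -0.04 ± 0.13 (interval -0.34 to 0.26, adjusted p = 0.938). The dimmer probe set of Pdhb read 174, 177 and 190.4 on masseter arrays 1 to 3 against 218, 192 and 194 on tibialis arrays 1 to 3, the masseter arrays all below the tibialis arrays, with a difference of -0.16 ± 0.17 (interval -0.56 to 0.24, adjusted p = 0.778). Dlat, the E2 acetyltransferase, read 795, 958 and 689.6 on masseter arrays 1 to 3 against 868, 997 and 1126 on tibialis arrays 1 to 3 on its brightest probe set, with the masseter lower in each pair and a difference of -0.30 ± 0.17 (interval -0.68 to 0.09, adjusted p = 0.521). Its other probe sets disagreed, at -0.30 ± 0.18 and 0.0039 ± 0.14. Dld, the E3 dehydrogenase that this complex shares with the oxoglutarate dehydrogenase of the cycle, read 818, 892 and 810.1 on masseter arrays 1 to 3 against 746, 838 and 813 on tibialis arrays 1 to 3, a difference of 0.07 ± 0.14 (interval -0.24 to 0.39, adjusted p = 0.878).

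Citrate synthase, the entry enzyme of the cycle and a common index of mitochondrial content, read 4978, 7215 and 6640 on masseter arrays 1 to 3 against 5875, 5779 and 6204 on tibialis arrays 1 to 3 on its brightest probe set. The groups overlapped, and the difference was 0.06 ± 0.14 (interval -0.25 to 0.37, adjusted p = 0.904). The other probe sets of Cs gave 0.21 ± 0.13 and -0.06 ± 0.14. At these intervals a difference of 1 on the log2 scale lay outside the range for each of the 3 probe sets.

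Isocitrate dehydrogenase is present as the NADP-linked Idh2 and as the NAD-linked enzyme of the cycle, built from Idh3a, Idh3b and Idh3g. Idh3a, its catalytic subunit, read 3707, 4374 and 3836 on masseter arrays 1 to 3 against 4677, 4737 and 4799 on tibialis arrays 1 to 3, the masseter arrays all below the tibialis arrays. The difference was -0.26 ± 0.12 (interval -0.53 to 0.01, adjusted p = 0.411), and the other probe sets, at -0.19 ± 0.15 and -0.12 ± 0.19, overlapped. Idh3g, a regulatory subunit, differed by -0.11 ± 0.12 and -0.19 ± 0.12 on its probe sets. Idh2 read 1204, 1255 and 897 on masseter arrays 1 to 3 against 919, 1458 and 705 on tibialis arrays 1 to 3, a wide spread within the tibialis anterior, with a difference of 0.17 ± 0.16 (interval -0.20 to 0.55, adjusted p = 0.728).

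The probe sets of Idh3b, the other regulatory subunit, pointed in opposite directions. The brighter, whose name ends in _s_at, read 2617, 7624 and 2828 for masseter samples 1 to 3, and 3918, 7143 and 8024 for tibialis anterior samples 1 to 3. Masseter 1, masseter 3 and tibialis anterior 1 were low and the other arrays high, so the split did not follow the muscles, and the difference was -0.66 ± 0.25 (interval -1.25 to -0.08, adjusted p = 0.311). The dimmer, whose name ends in _a_at, read 296, 279 and 316 for masseter samples 1 to 3, and 129, 167 and 196 for tibialis anterior samples 1 to 3. All masseter arrays lay above all tibialis arrays, with a difference of 0.87 ± 0.18 (interval 0.45 to 1.29). Its adjusted p of 0.0748 was the smallest of the 64 tested probe sets of the members and did not pass. Within each array, the log2 of the dimmer over the brighter signal read -3.15, -4.77 and -3.16 on masseter arrays 1 to 3 against -4.93, -5.42 and -5.35 on tibialis arrays 1 to 3. In the array maker's naming, a probe set ending in _a_at is meant to read several transcripts of 1 gene and 1 ending in _s_at may read transcripts of more than 1 gene, so the value of Idh3b is uncertain. Without the number 2 pair, the brighter probe set gave -1.04 with a limma adjusted p of 0.0458, and this was the only alternative of 18 under which any member gene passed.

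**Figure D4:**
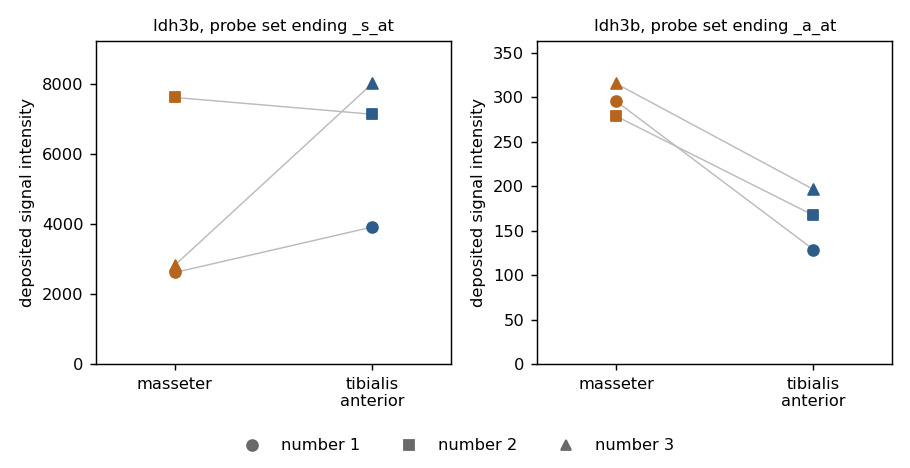
The panels plot the deposited signal (vertical axis, from 0) of both probe sets of Idh3b on each array, with grey lines joining samples of the same number. On the brighter, ending in _s_at, the masseter samples read 2617, 7624 and 2828 and mix with the tibialis samples, while on the dimmer, ending in _a_at, the masseter samples, from 279 to 316, all lie above the tibialis samples, from 129 to 196.

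For the remaining member genes of the cycle the groups overlapped on the brightest probe set. Ogdh, the E1 enzyme of oxoglutarate dehydrogenase, read 1039, 1161 and 960.2 on masseter arrays 1 to 3 against 1146, 1375 and 1295 on tibialis arrays 1 to 3, with the masseter lower in each pair and slight overlap, a difference of -0.27 ± 0.14 (interval -0.58 to 0.04, adjusted p = 0.452). Dlst, its E2 enzyme, read 793, 869 and 961 on masseter arrays 1 to 3 against 809, 862 and 1002 on tibialis arrays 1 to 3, a difference of -0.03 ± 0.13 (interval -0.33 to 0.28, adjusted p = 0.96). Its dim second probe set gave 0.07 ± 0.29 (interval -0.61 to 0.74, adjusted p = 0.953). Sucla2, the ADP-linked β subunit of succinyl-CoA ligase, read 4889, 5642 and 6357 on masseter arrays 1 to 3 against 6692, 7215 and 6312 on tibialis arrays 1 to 3, a difference of -0.27 ± 0.13 (interval -0.56 to 0.03, adjusted p = 0.442). The GTP-linked partner Suclg2 was dim, at 49.5 to 106, and differed by -0.08 ± 0.30 (interval -0.77 to 0.61), and the shared α subunit Suclg1 by 0.04 ± 0.14.

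Fh1, fumarase, differed by 0.01 ± 0.13 (interval -0.28 to 0.30). Mdh2, the mitochondrial malate dehydrogenase, gave -0.0032 ± 0.11 on its brightest probe set and -0.24 ± 0.11 on the other. Mdh1, the cytosolic enzyme of the malate-aspartate shuttle, read 10100, 11798 and 7580 on masseter arrays 1 to 3 against 8103, 7244 and 12075 on tibialis arrays 1 to 3, a scattered set of values in both muscles with a difference of 0.12 ± 0.23 (interval -0.41 to 0.64, adjusted p = 0.886). Its other probe sets above the filter level gave -0.12 ± 0.12 and -0.11 ± 0.14. Of the 20 members with more than 1 probe set above the filter level, 13 had the same sign on all of them and 7 did not. These 7 were Acadl, Hadh, Cs, Dlst, Idh3b, Mdh1 and Dlat.

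Among the neighbouring genes of these pathways 1 passed. Bdh1, the mitochondrial enzyme that interconverts the ketone bodies acetoacetate and 3-hydroxybutyrate, was lower in the masseter. Its single probe set read 52.6, 56.4 and 37.2 for masseter samples 1 to 3, and 116, 318 and 231 for tibialis anterior samples 1 to 3, all masseter arrays well below all tibialis arrays, among which tibialis anterior 1 was the lowest. The difference was -2.09 ± 0.31 (interval -2.79 to -1.39, adjusted p = 0.0198). Over the 18 alternatives the difference ranged from -2.56 to -1.77, and the call held in 10. It ended with eBayes without trend (adjusted p = 0.199), with paired SAM (0.132), without the block and with a covariate for salivary signal (0.073) and, without the block, when masseter 1, 2 or 3 or tibialis anterior 2 or 3 was left out (adjusted p from 0.0637 to 0.103). Oxct1 and Acat1, the following enzymes of ketone body use, differed by 0.13 ± 0.13 and -0.03 ± 0.15.

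Among 35 measured genes of other fatty acid handling, 32 were above the filter level, 0 were higher in the masseter, Bdh1 was lower and 31 did not pass, with a median difference of 0.07. The smallest p values that did not pass belonged in the upward direction to Acsl4, an acyl-CoA synthetase for polyunsaturated fatty acids, at 0.77 ± 0.21 (adjusted p = 0.152), and to Acot1, a cytosolic thioesterase, at 1.35 ± 0.44 (adjusted p = 0.234). Acot1 was dim, at 55.9, 28.6 and 71.9 on masseter arrays 1 to 3 against 30.9, 8.6 and 26.3 on tibialis arrays 1 to 3, with overlap. Its tibialis mean of 19.1 lay under the filter level of 28.6, so Acot1 was kept only through the masseter. In the downward direction the smallest p value that did not pass was that of Acacb, the acetyl-CoA carboxylase whose product malonyl-CoA restrains fatty acid entry, at -0.56 ± 0.19 (adjusted p = 0.247). Of 7 measured genes around pyruvate dehydrogenase, 6 were above the filter level and 0 passed. Pdk1, a kinase that inactivates the complex, read 118, 151 and 82.5 on masseter arrays 1 to 3 against 170.3, 235 and 194 on tibialis arrays 1 to 3, without overlap, a difference of -0.80 ± 0.21 (adjusted p = 0.133). Mpc1, a subunit of the mitochondrial pyruvate carrier, differed by -0.21 ± 0.14, and Pdk2 and Pdk4, other kinases of the complex, by 0.09 ± 0.16 and 0.04 ± 0.15.

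Of 16 measured genes around the citric acid cycle, 15 were above the filter level, 0 passed and the median difference was 0.03. Sdhb, the iron-sulphur subunit of succinate dehydrogenase, read 4407, 5378 and 5369 on masseter arrays 1 to 3 against 7437, 7847 and 7116 on tibialis arrays 1 to 3. The groups were well apart, with a difference of -0.57 ± 0.12 (interval -0.85 to -0.29, adjusted p = 0.0787). Sdhd, a membrane anchor of the same complex, also had no overlap on its brighter probe set, at -0.53 ± 0.13 (adjusted p = 0.111). Its other probe set gave -0.25 ± 0.15 with overlap (adjusted p = 0.547). The flavoprotein Sdha was at -0.08 ± 0.13 and the other anchor Sdhc at 0.10 ± 0.13. In the upward direction stood Slc25a10, the mitochondrial dicarboxylate carrier, at 0.96 ± 0.20 (adjusted p = 0.0771), and Idh1, the cytosolic isocitrate dehydrogenase, at 0.65 ± 0.20 (adjusted p = 0.203). Slc25a10 passed in 1 of 18 alternatives.

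Of 18 measured regulators, 16 were above the filter level and 0 passed, with a median of 0.11. Ppargc1a, the coactivator PGC-1α that drives mitochondrial genes, read 619.5, 534 and 490.1 on masseter arrays 1 to 3 against 232, 324 and 459 on tibialis arrays 1 to 3 on its brightest probe set, all masseter arrays above all tibialis arrays. The difference was 0.75 ± 0.24 (interval 0.20 to 1.30, adjusted p = 0.225), and its 4 other kept probe sets were also without overlap, at 0.40 to 0.93. Angptl4, an inhibitor of lipoprotein lipase, was at 0.57 ± 0.25 (adjusted p = 0.392). On the lower side were Lpin1, a lipin that also acts with PGC-1α, at -0.60 ± 0.14 (adjusted p = 0.0929), and Esrrb, an estrogen-related receptor, at -0.59 ± 0.40 (adjusted p = 0.608). Ppara, the fatty acid receptor, was scattered, at 109, 70.7 and 44.1 on masseter arrays 1 to 3 against 13.5, 57.1 and 80 on tibialis arrays 1 to 3.

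Markers of tissues and cell types differed between the arrays. The 12 markers of skeletal muscle were all above the filter level, 0 of them passed, and 9 of the 12 differences were below 0, with a median of -0.13. Their summed signal was 159357 on masseter 1, 181973 and 188417 on masseter 2 and 3 and 190101 to 192770 on the tibialis arrays. Salivary gland markers, of which 8 of 10 were measured and 3 of those lay under the filter level, summed to 49689 on masseter 1. On the other 5 arrays they summed to between 2432 and 7521. Of these markers 2, Pip and Smr3a, passed as higher in the masseter, but the groups overlapped for both. Pip averaged 17.5 in the tibialis anterior, under the filter level of 28.6, and was kept only through the masseter. Smr2 went the other way, at -0.64 ± 0.25 (adjusted p = 0.327). It alone gave 1010 to 2123 of the sums in the masseter and 1848.5 to 2548 in the tibialis anterior. Of the heart markers 5 of 7 lay under the filter level, and all 7 summed to at most 191 on any array. Ucp1 and Cidea, which define brown fat, lay under the filter level, although Ucp1 read 101 on masseter 1, and 0 of the 3 other markers of that list passed. Among the slow-fibre markers 3 of 8 passed, Myl2, Myl3 and Car3, all lower in the masseter, while Atp2a2 was at 0.23. Myl2 averaged 25.9 in the masseter, under the filter level of 28.6, and was kept only through the tibialis anterior, at 377. The list's sum was 4134 to 5518 in the masseter and 16315 to 21364 in the tibialis anterior, of which Car3 alone gave 3511 to 4799 and 12891 to 17841. Of 7 macrophage and leukocyte markers above the filter level 0 passed, and the sums were 737 to 1049 and 586 to 861. On the Gapdh control, the 3′ over 5′ ratio that tracks RNA and labelling quality averaged 2.66 ± 0.23 (SD, n = 3) for masseter and 1.94 ± 0.11 for tibialis anterior (two-sided exact permutation p = 0.1, the smallest that 3 against 3 allows). On Actb it averaged 2.96 ± 0.34 for masseter against 2.70 ± 0.11 (exact permutation p = 0.3).

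The part of these values in the differences of the members was not tested. Without masseter 1, the median difference of the fatty acid genes was -0.16 and that of the citric acid cycle genes 0.01. By array, the median deviation of the 20 fatty acid genes from their own means over the 6 arrays read -0.10, -0.16 and 0.03 on masseter arrays 1 to 3 against 0.11, 0.12 and 0.05 on tibialis arrays 1 to 3. All 3 tibialis arrays thus lay above all 3 masseter arrays, with masseter 3 just below tibialis anterior 3. The citric acid cycle genes read -0.15, 0.05 and -0.06 in the masseter and -0.12, 0.11 and 0.08 in the tibialis anterior, where sample 1 was the lowest on both sides and the groups overlapped.

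**Figure D5:**
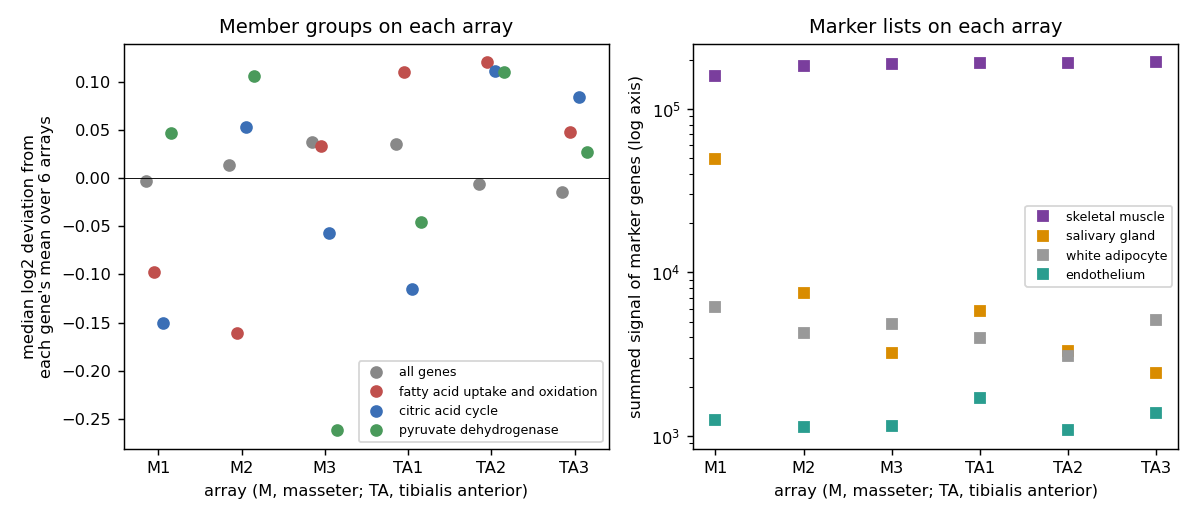
The left panel plots, for each array (horizontal axis), the median over genes of the log2 deviation from each gene's mean over 6 arrays (vertical axis), for all genes and for each member group; the fatty acid genes run from -0.16 to 0.03 in the masseter and from 0.05 to 0.12 in the tibialis anterior. The right panel plots the summed signal of marker genes of 4 tissues on a log axis; salivary gland markers reach 49689 on masseter 1, where the skeletal muscle sum of 159357 is the lowest of the 6.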

How the data were processed

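Transcripts were measured in 3 superficial masseter and 3 tibialis anterior samples on 1 short-oligonucleotide array each. The values deposited by the authors are linear signal intensities of probe sets; MAS5 and GCOS are the tools in the submitters' processing notes, which give no version or setting here. Genes were named through GEO's platform annotation, in which 20380 of 22690 probe sets had 1 symbol, 691 several and 1555 none, and 64 were controls. The 2% trimmed mean was 150.1 on every array, so no scaling was added. Precision rests on 3 arrays per muscle.

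Signals under 1 were set to 1 and taken to log2. Controls were left out, and the 13576 of 22626 probe sets at or above the 40th percentile of mean log2 signal were kept (a signal of 28.6). Differences were fitted in R 4.3.3 with limma 3.58.1 (eBayes with trend, two-sided) and the sample number as a block, since paired comparisons are described in the series' design text, with Benjamini-Hochberg adjustment over all kept probe sets, with a threshold of 0.05. In arrays simulated with 13576 probe sets and the fitted spread, 54% of 100 changes of 1 on the log2 scale and 80% of 100 changes of 2 were called.

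Members, lists and alternatives were chosen with earlier results of these data known. In full were given, per group of members, the 3 with the largest difference in each direction. All of pyruvate dehydrogenase and the members whose probe sets differ in sign were also given in full. Of each neighbouring list, genes past the threshold and the 2 smallest p values in each direction were given, many of them without signals or interval. The genes with no overlap were added after their values were seen. The 18 alternatives were the fit without the block, quantile normalization, log2(signal + 16), no filter, the 60th percentile, eBayes without trend, paired SAM with its 8 sign flips, the mean salivary signal as a covariate without the block, the mean over probe sets, leaving out each numbered pair, and leaving out each array without the block. Background correction could not be varied from summarised signals.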

Additional observations from a re-analysis of the deposited data

How the results depend on the processing

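None of the 37 genes passed under 17 of the 18 alternatives. The exception was the fit without the number 2 pair, where the count of member genes went from 0 to 1, and so did that of member probe sets; the gene was Idh3b, at -1.04 (limma adjusted p = 0.0458), and its other probe set has the opposite sign. The count of all probe sets past the threshold, 160, was 13 with eBayes without trend, 51 with paired SAM and 87 with the salivary covariate and no block. It ranged from 45 (without masseter 2) to 173 (without the number 1 pair) when a pair or an array was left out. The median difference of the fatty acid genes stayed between -0.24 and -0.15 over all alternatives, and that of the citric acid cycle genes between -0.10 and 0.011 when a pair or an array was left out.

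Without the replicate block, 138 probe sets passed and 0 of them belonged to the members, with medians unchanged by construction. Deviations of same-numbered samples from their muscle's mean correlated at 0.04, 0.15 and 0.10 for numbers 1, 2 and 3 over 13576 probe sets. Samples of different numbers correlated at -0.16 to 0.047. Masseter 2 and masseter 3 correlated best with their own number. Masseter 1 correlated best with tibialis anterior 2, at 0.0412 against 0.0392 for its own number. These weak values do not settle whether same-numbered samples share more than a number.

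Of 665 member values over the alternatives, 624 kept their direction and side of the threshold, 40 changed sign and 1 passed; 25 genes kept 1 sign throughout and 12 did not. Of the 25, 16 moved by over 1.5 times under at least 1 alternative, such as Cd36 (-0.66 to -0.12), Fabp3 (-0.40 to -0.011), Acadvl (-0.29 to -0.029) and Eci1 (-0.19 to -0.0062), and 9 did not: Lpl, Cpt2, Acadm, Acaa2, Etfdh, Slc25a20, Crat, Idh3a and Ogdh. Of the neighbouring genes, Ppargc1a ran from 0.41 to 1.07. Apart from Idh3b, the members that changed sign had differences between -0.08 and 0.17, and the cause was not tested. With quantile normalization, Hadhb was at 0.0057, Dlst at 0.00249 and Pdhb at 0.032. With the salivary covariate and no block, Dlst was at 0.090, Suclg1 at -0.030, Mdh2 at 0.13 and the kinase gene Pdk4 at -0.23. With the mean over a gene's probe sets, Idh3b was at 0.10, Dlst at 0.020 and Mdh1 at -0.038. When a pair or an array was left out, the ranges that crossed 0 were -0.13 to 0.082 for Hadhb, -0.068 to 0.055 for Etfb, -0.071 to 0.22 for Cs, -0.065 to 0.46 for Idh2, -0.096 to 0.062 for Dlst, -0.13 to 0.15 for Suclg1, -0.47 to 0.20 for Suclg2, -0.12 to 0.10 for Fh1, -0.18 to 0.51 for Mdh1, -0.081 to 0.090 for Mdh2, -0.13 to 0.089 for Pdhb and -0.54 to 0.45 for Pdk4. Dim probe sets such as those of Acot2 and Suclg2 have wide intervals, and 3 arrays per muscle limit all values.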

Other observations

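Pdk4, Plin5 and the genes set beside them here were picked out after their values were seen. Pdk4, a pyruvate dehydrogenase kinase, read 4930, 1786 and 3550 for masseter samples 1 to 3, and 4766, 1368 and 4430 for tibialis anterior samples 1 to 3. Plin5, a lipid droplet protein, read 285, 140.5 and 187 for masseter samples 1 to 3, and 340.3, 137 and 278 for tibialis anterior samples 1 to 3. In both genes the sample of number 2 was the lowest of its muscle on both sides. Other genes of lipid use went both ways. Pnpla2, Mgll, Mlycd, Fabp4, Lpin1 and Acot1 also had number 2 lowest in both muscles, as did 11.7% of all genes. So did Slc27a1, Eci2 and Hsd17b4, while Fabp5, Acsl4, Acsl6, Acot7, Echs1, Oxct1, Acat1 and Slc22a5 were among those that did not. Pnpla2 read 790, 604 and 861 for masseter samples 1 to 3, and 778, 541 and 868.5 for tibialis anterior samples 1 to 3. Plin2, another lipid droplet protein, was instead lowest in masseter 3 and tibialis anterior 3. Angptl4 and Cpt1a were lowest in masseter 2 but in tibialis anterior 3. For Cpt1a this was narrow, at 71.2 against 71.4 in tibialis anterior 2.

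Among the members, number 2 was the lowest of both muscles for 5 of 20 fatty acid genes (Fabp3, Hadha, Acaa2, Acot2 and Crat), against 11.7% of all genes, and for 0 of 14 citric acid cycle genes. Number 1 was the lowest of both for 4 of the 14 citric acid cycle genes (Idh3a, Idh3b, Dlst and Mdh2) and 2 of the 20 fatty acid genes, against 10.5% of all genes, and number 3 for 1 of the 14 and 2 of the 20, against 13.1%. Over all 37 members the counts were 6, 5 and 4 for numbers 1, 2 and 3. Number 2 was also the highest of both muscles for 8 of the 37, against 11.2% of all genes. Number 1 was the highest of both for 1, against 12.7%, and number 3 for 3, against 12%. The labels do not say what same-numbered samples share.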
